A study of Mus musculus with 107 samples.

Results

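The 45 genes described here are known targets of the hypoxia-inducible factors (HIF) and genes of glycolysis, taken by gene name from the 50686 genes of the table. Of these, 22 are glycolytic (2 glucose transporters, 16 enzymes, 2 regulators of phosphofructokinase and 2 lactate transporters) and 23 are non-glycolytic HIF targets. Their RNA was measured in 107 subcutaneous tumors of 12 mouse syngeneic models, each grown from 1 cancer cell line in immunocompetent mice. By origin, Renca and RAG are renal cell carcinomas, B16-F10 is a melanoma and MBT2 a bladder cancer. Hepa 1-6 and BNL 1ME A.7R.1 are hepatocellular, CT26.WT and MC38 colorectal, KLN205 and LL/2 lung, and EMT6 and 4T1 breast lines. Treatment-naive tumors, here called Base (n = 35), were taken at about 100 mm3. The NT tumors (n = 36) and the tumors given lenvatinib (LEN, n = 36) were taken on day 8, the latter after 7 days of 10 mg/kg by mouth once daily. LEN is an inhibitor of several receptor tyrosine kinases, among them the receptors of vascular endothelial growth factor and fibroblast growth factor. Each model had 3 tumors per group, except for 2 Base tumors of MC38. No group carried an engineered allele. Hosts were BALB/cAnNCrlCrlj mice for BNL 1ME A.7R.1, RAG, Renca, CT26.WT, EMT6 and 4T1, and C57BL/6 substrains for LL/2, MC38 and B16-F10. They were C57L/J, DBA/2NCrl and C3H/HeNCrl mice for Hepa 1-6, KLN205 and MBT2. Each model had 1 host strain, so strain and model cannot be told apart between models of different strains. The BALB/c models shared 1 strain. Of the labelled origins, 4 hepatocyte markers summed to 3757 to 4132 TPM in Hepa 1-6 NT tumors but to 0.07 to 0.13 TPM in those of BNL 1ME A.7R.1, where they were near 0.

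When oxygen is short, the HIF alpha subunits escape degradation, pair with their beta subunit and bind DNA at a short core sequence near their target genes. The targets raise glucose uptake, glycolysis and lactate export, move acid out of the cell, restrain mitochondrial respiration, and include secreted factors and collagen-modifying enzymes. Solid tumors often hold hypoxic regions far from blood vessels, and many tumor cells also run glycolysis at high rates when oxygen is present.

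Expression was given as TPM (transcripts scaled to a fixed sum per tumor), which is scaled for gene length, so that levels may be compared between genes, and which keeps no sequencing depth. Changes were computed as differences of log2(TPM + 1), which understate the change of genes at low TPM, and all 45 genes passed the minimum mean TPM of 1 in the fit over models. The nearest tumor by expression was of the same model for 107 of 107 tumors. Some libraries stood apart. The BNL 1ME A.7R.1 LEN tumors had a summed TPM of 6 skeletal muscle markers of 1683 to 2416, against 40.2 to 121 in NT and 306 to 690 in Base, and their sum of Krt8, Krt18 and Epcam was 753 to 885 against 12.3 to 32.3 in NT and 118 to 150.4 in Base, with Epcam near 0 throughout. In B16-F10 the NT and LEN tumors lay on either side of Base for several lists. The muscle markers were at 104 to 135 in Base, 2.44 to 23.98 in NT and 139 to 218 in LEN, and 5 fibroblast markers at 214 to 324, 86.7 to 113 and 365 to 473. The 6 macrophage markers stood at 129 to 169 in Base, 60.3 to 89.0 in NT and 196 to 280.0 in LEN. The 5 T-cell markers stood at 3.25 to 5.55, 0.47 to 3.68 and 15.1 to 19.2, and the 5 adipocyte markers at 3.02 to 6.04, 0.10 to 1.15 and 4.57 to 11.4. In 4T1, LEN tumor 4 had 27.5% of its TPM in protein-coding genes, the lowest of all tumors. The parts of these differences in the results were not tested, and the counts over models are given with and without each of these models. In bulk tumors, fewer cells of a type and less RNA per cell cannot be told apart.

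To ask how the HIF and glycolysis genes differed under LEN, the LEN and NT tumors of all 12 models were fitted together. Averaged over the models, 41 of 45 genes rose in LEN and 1 fell (limma on 72 tumors, Benjamini-Hochberg adjusted p under 0.05). Of all 17351 genes tested, 13.7% rose and 9.87% fell. The median change was 0.32 on the log2 scale over the 45 genes and -0.002 over all genes. The glycolytic genes had 21 of 22 higher and 0 lower (0 also at an unadjusted p under 0.05), with a median of 0.32, and the non-glycolytic genes had 20 of 23 higher and 1 lower, with a median of 0.33. The gene that fell was Stc1, and the genes that passed in neither direction were Pfkfb4, Plod1 and Angptl4. Without BNL 1ME A.7R.1 40 genes rose, without B16-F10 40, without 4T1 41 and without Renca 39, with 1 lower in each case. Higher in LEN in all 12 models were 8 genes (Slc2a1, Hk1, Hk2, Pfkl, Pfkp, Slc16a3, P4ha2 and Bhlhe40), and lower in all 12 were 0, where 0.346% of all genes were higher and 0.548% lower in every model.

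**Figure D1:**
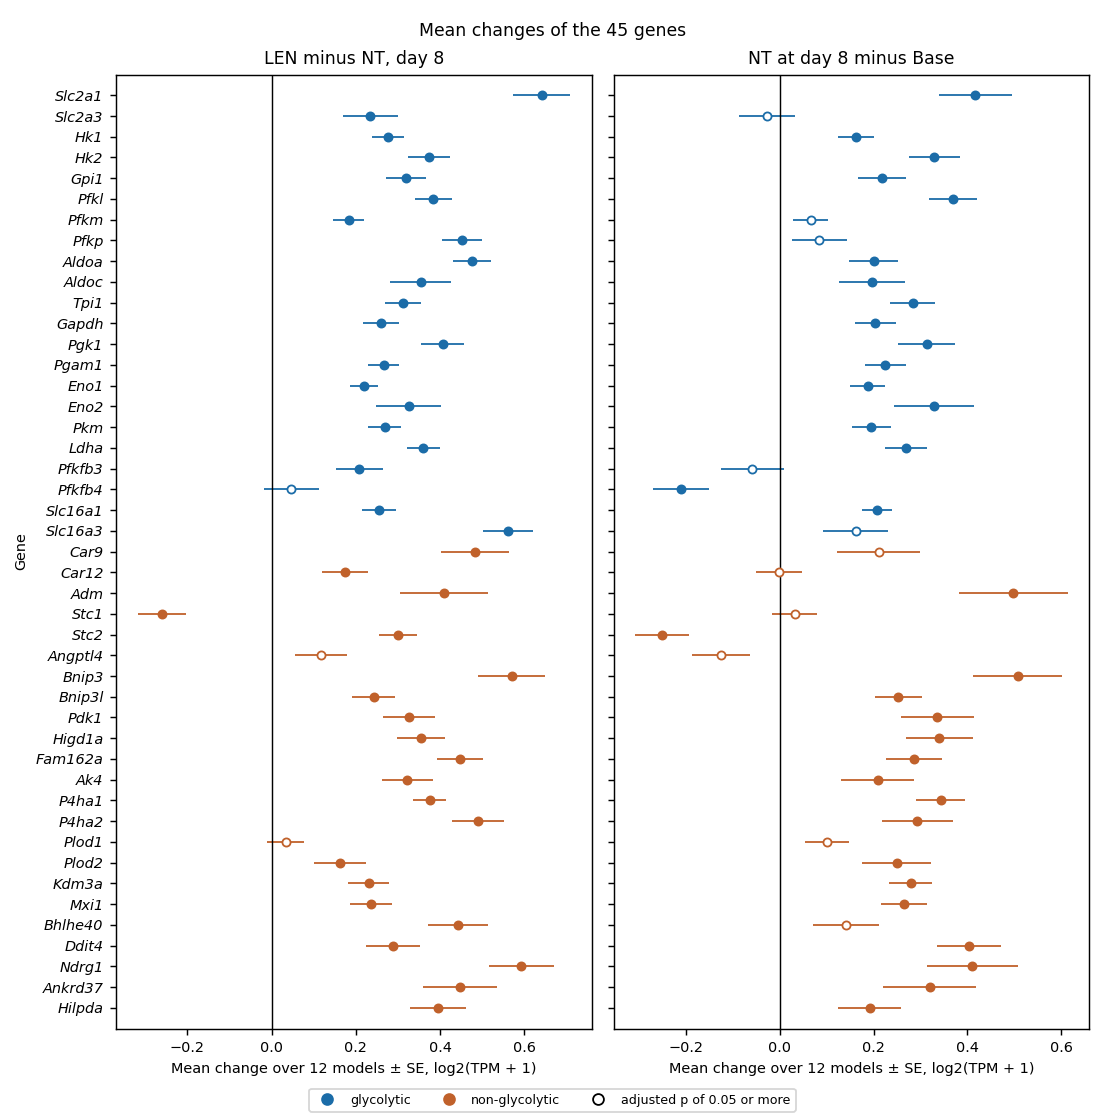
Mean change over the 12 models with its SE, in units of log2(TPM + 1), for LEN against NT at day 8 (left, 36 tumors each) and for NT at day 8 against Base (right, 36 and 35 tumors). Filled points had an adjusted p under 0.05. At left 41 points lie above 0 and filled, with Slc2a1 farthest at 0.64, and Stc1 is the filled point below 0 at -0.26. The NT tumors enter both panels.

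The sequences before the starts of some of the genes are shown as a description. Promoter windows of 300 bases (250 before and 50 after the start, GRCm38.p6, RefSeq) were found for 38 of the 45 genes. The core of the HIF site was searched as ACGTG and GCGTG on both strands. A palindromic CACGTG counts on each strand, and a match is a description of letters and not a site. ACGTG occurred in at least 1 window of 25 of the 38 genes (65.8%) and in 28.5% of the 10658 tested genes with a window. The 45 genes were chosen as known HIF targets and glycolysis genes, so a higher share could be foreseen and tests no cause of their changes. GCGTG occurred in 27 genes (71.1%) and in 54.3% of the tested genes. Some genes have several windows. Counted by window, ACGTG was in 49.2% of 59 windows of the 45 genes and in 24.5% of those of the tested genes, and in 19.6% of all 32851 windows. ACGTG occurred in 14 of 21 glycolytic and 11 of 17 non-glycolytic genes. The median GC content was 64.3% in the windows of the 45 genes, 60.3% in those of the tested genes and 52.7% in all windows. The stretches below are 5′ to 3′ on the gene's strand, end before the RefSeq start, and mark every match of either core in capitals.
Slc2a1: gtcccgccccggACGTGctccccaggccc
Slc16a3: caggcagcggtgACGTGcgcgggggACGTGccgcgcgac
Pgk1: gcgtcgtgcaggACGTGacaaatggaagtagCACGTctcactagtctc
Ldha: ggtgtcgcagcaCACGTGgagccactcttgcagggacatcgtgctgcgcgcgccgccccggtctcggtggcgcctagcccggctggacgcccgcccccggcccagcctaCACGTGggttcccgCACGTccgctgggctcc
Bnip3: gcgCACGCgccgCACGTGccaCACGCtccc
P4ha2: tgtgcatcgcatACGTGcagcGCGTGgcg
Car9: ctatttccgatgCACGTacagcccgtcca
Adm: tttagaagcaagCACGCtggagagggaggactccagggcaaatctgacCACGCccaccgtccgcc
These lie at chr4:119108697-119108725 (+) for Slc2a1, chr11:120949028-120949066 (+) for Slc16a3, chrX:106186938-106186985 (+) for Pgk1, chr7:46845647-46845786 (+) for Ldha, chr7:138909597-138909626 (-) for Bnip3, chr11:54100834-54100862 (+) for P4ha2, chr4:43506996-43507024 (+) for Car9 and chr7:110627555-110627619 (+) for Adm. In GENCODE M21 the stretches of Pgk1, Ldha, Bnip3, P4ha2 and Adm overlap no exon, those of Slc2a1 and Slc16a3 overlap exons of the same genes by 15 and 14 bases, and that of Car9 lies within 1 of its exons. Ldha carried 5 matches in its stretch and Adm 2, both of GCGTG read on the opposite strand. Stretches of other leading genes are not shown. By window, Hk2 had 2 matches of ACGTG, Aldoa 1 or 0 and Pfkp 0, with 4 of GCGTG. Another Ldha window had 0 of ACGTG and 2 of GCGTG, and Ndrg1 had no window.

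Among the glucose transporters, both genes rose. Slc2a1, which encodes GLUT1, the basal glucose transporter, had the largest mean change of the 45, 0.64 ± 0.07 (SE, adjusted p = 1.29e-10, limma), and was higher in LEN in 12 of 12 models. Its mean of the model means went from 76.0 TPM in NT to 116 TPM in LEN. Without Renca its change was 0.536 and no longer the largest, as that of Ndrg1 was 0.542 or more without any 1 model. In Renca Slc2a1 had 38.5, 37.5 and 38.3 TPM in NT and 121, 150.4 and 132 TPM in LEN, so the groups lay far apart. In B16-F10 the NT tumors had 61.4, 81.0 and 60.4 TPM and the LEN tumors 108, 128 and 140.0 TPM, again with no overlap. In LL/2 the NT tumors had 71.4, 170 and 88.9 TPM and the LEN tumors 153, 112 and 125 TPM, all within the range of the NT tumors. Slc2a3, the GLUT3 transporter, was at 3.56 TPM in NT and 4.48 TPM in LEN and rose by less, 0.23 ± 0.07 (adjusted p = 0.0058, limma).

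The lactate transporters both rose. Slc16a3 (MCT4, the exporter of glycolytic cells) changed by 0.56 ± 0.06 (adjusted p = 1.11e-10, limma) and was higher in 12 of 12 models. In B16-F10 it had 103, 118 and 101 TPM in NT and 222, 252 and 245 TPM in LEN. In Renca it stood at 5.43, 4.09 and 6.80 TPM in NT and 13.3, 13.3 and 13.4 TPM in LEN. The groups did not overlap in either model. Slc16a1 (MCT1) changed by 0.25 ± 0.04 (adjusted p = 1.97e-06), with its largest change of 0.98 in BNL 1ME A.7R.1.

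All 16 enzyme genes rose on average, 9 of 9 in the upper part of the pathway from hexokinase to triosephosphate isomerase (changes of 0.18 to 0.48) and 7 of 7 in the lower part from Gapdh to Ldha (0.22 to 0.41). Aldoa, the aldolase that splits fructose bisphosphate, changed by 0.48 ± 0.04 (adjusted p = 2.91e-12, limma), and Pfkp, the platelet-type phosphofructokinase, by 0.45 ± 0.05 (adjusted p = 8.99e-11). The changes of Pfkp ran from 0.13 in 4T1 to 0.77 in Hepa 1-6. Aldoa without BNL 1ME A.7R.1 changed by 0.38. Hk2, the inducible hexokinase that commits glucose to the cell, changed by 0.37 ± 0.05 (adjusted p = 4.6e-08) and was higher in 12 of 12 models. Its values in Renca were 47.3, 35.1 and 41.1 TPM in NT and 59.7, 61.6 and 63.1 TPM in LEN. In Hepa 1-6 they were 47.0, 43.7 and 41.4 TPM in NT and 62.6, 61.5 and 59.1 TPM in LEN. Neither model had an overlap between the groups.

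Pgk1, an ATP-forming kinase of the lower part, changed by 0.41 ± 0.05 (adjusted p = 1.02e-08, limma). In Renca it had 249.98, 239 and 260.0 TPM in NT and 453, 507 and 450.3 TPM in LEN, and in B16-F10 1409, 1511 and 1414 TPM in NT and 1529, 1719 and 1864 TPM in LEN. In LL/2 the NT tumors had 275, 428 and 289.5 TPM and the LEN tumors 322, 301 and 310.5 TPM, so there the groups overlapped. Ldha, which makes lactate from pyruvate, changed by 0.36 ± 0.04 (adjusted p = 2.4e-10), with 512, 458 and 511 TPM in NT and 759.6, 839 and 759 TPM in LEN in Renca. Its change without BNL 1ME A.7R.1 stayed positive, and its NT and LEN tumors did not overlap in 8 models. Pfkm, the muscle-type phosphofructokinase, changed by 0.18 ± 0.04 (adjusted p = 0.00013), but without BNL 1ME A.7R.1 by 0.07 with adjusted p = 0.21, so its call rests on that model.

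Of the 2 regulators 1 rose. Pfkfb3, which makes the activator fructose 2,6-bisphosphate, rose by 0.21 ± 0.06 (adjusted p = 0.0037, limma). Pfkfb4, of the same family, changed by 0.05 ± 0.07 (adjusted p = 0.68) and was higher in LEN in only 5 of 12 models.

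Of the genes that handle acid, Car9, the membrane carbonic anhydrase IX, rose by 0.48 ± 0.08 (adjusted p = 6.44e-06, limma) and was higher in 9 of 12 models. In RAG it had 24.6, 36.5 and 38.8 TPM in NT and 109, 85.5 and 105 TPM in LEN. In B16-F10 it had 97.2, 128 and 125 TPM in NT and 209, 246 and 282 TPM in LEN. In Renca, the other renal model, Car9 was near 1 TPM in both groups (1.74, 1.24 and 1.92 TPM in NT and 0.86, 1.21 and 1.21 TPM in LEN). Car12, carbonic anhydrase XII, changed by 0.17 ± 0.05 (adjusted p = 0.014). It missed the threshold without Renca (0.14, adjusted p = 0.091), without RAG (0.14, adjusted p = 0.085) and with a pseudocount of 0.1 (0.15, adjusted p = 0.28).

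The 4 secreted factors were the most divided group, with 2 higher and 1 lower. Adm encodes adrenomedullin, a vasodilator peptide, and changed by 0.41 ± 0.10 (adjusted p = 0.0023, limma). The Renca tumors had 7.64, 5.46 and 7.67 TPM in NT and 27.9, 45.1 and 33.3 TPM in LEN, a change of 2.19. In units of log2(TPM + 1) this was the largest of any of the 45 genes in any model. The rank depends on the added 1 TPM, which shrinks the changes of low genes such as Stc2 in BNL 1ME A.7R.1. Without Renca the mean change of Adm was 0.25 with adjusted p = 0.12. Stc2 (stanniocalcin 2) changed by 0.30 ± 0.04 (adjusted p = 4.6e-07), by 0.16 without BNL 1ME A.7R.1, and by 0.28 to 0.58 over the alternative settings. In BNL 1ME A.7R.1 it had 0.32, 0.48 and 0.23 TPM in NT and 6.07, 3.16 and 3.14 TPM in LEN. Its relative Stc1 fell by 0.26 on the log2 scale (SE 0.06, adjusted p = 0.00038). Over the alternative settings the change of Stc1 ran from -0.42 to -0.26. In KLN205 Stc1 had 1.94, 1.64 and 2.06 TPM in NT and 0.51, 0.95 and 0.48 TPM in LEN, and in Renca 1.95, 2.47 and 1.99 TPM in NT and 0.76, 0.98 and 0.80 TPM in LEN. In RAG it had 4.39, 3.69 and 3.23 TPM in NT and 4.98, 5.49 and 4.62 TPM in LEN, above NT in all 3 tumors. Angptl4, an inhibitor of lipoprotein lipase, changed by 0.12 ± 0.06 (adjusted p = 0.18), with the models in opposite directions.

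The genes of mitochondria rose as a group, 6 of 6. Bnip3, a receptor for mitophagy, changed by 0.57 ± 0.08 (adjusted p = 1.35e-07, limma). In Renca it had 121, 119 and 113 TPM in NT and 234, 332 and 255 TPM in LEN. In Hepa 1-6 it had 155, 115 and 121 TPM in NT and 201, 206 and 242 TPM in LEN. In LL/2 the NT tumors had 63.5, 152 and 68.7 TPM and the LEN tumors 103, 77.3 and 82.1 TPM, within the NT range. Its relative Bnip3l changed by 0.24, Pdk1, which blocks pyruvate entry into the citric acid cycle, by 0.33, Higd1a by 0.35, Fam162a by 0.45 and the adenylate kinase Ak4 by 0.32.

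Of the collagen-modifying enzymes, both prolyl 4-hydroxylase subunits rose, P4ha2 by 0.49 ± 0.06 (adjusted p = 8.59e-09, limma) in 12 of 12 models and P4ha1 by 0.37 ± 0.04. P4ha1 was higher in all 3 LEN tumors than in all 3 NT tumors in 10 models, as many as Ndrg1 and more than any other of the 45. The changes of P4ha2 ran from 0.01 in LL/2 to 0.79 in Hepa 1-6. In Hepa 1-6 P4ha2 had 33.3, 30.8 and 38.9 TPM in NT and 60.4, 52.9 and 67.1 TPM in LEN. The lysyl hydroxylases moved less. Plod2 changed by 0.16 with adjusted p = 0.048, and missed the threshold in 53 of 91 alternative fits, and Plod1 changed by 0.03 with adjusted p = 0.64.

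The genes of transcription and chromatin all rose, the histone demethylase Kdm3a by 0.23, the MYC antagonist Mxi1 by 0.24 and the repressor Bhlhe40 by 0.44, the last in 12 of 12 models. Of the remaining genes, Ndrg1, a stress-responsive gene, changed by 0.59 ± 0.08 (adjusted p = 3.22e-08, limma). In Renca it had 742, 545 and 578 TPM in NT and 782, 929 and 824 TPM in LEN. In RAG it had 339, 349 and 359 TPM in NT and 531, 492 and 595 TPM in LEN, and in B16-F10 21.5, 34.5 and 27.0 TPM in NT and 43.5, 51.9 and 53.1 TPM in LEN, all without overlap. Ankrd37 changed by 0.45, the lipid droplet gene Hilpda by 0.39 and the mTOR inhibitor Ddit4 by 0.29.

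In 4T1 the values depended on single LEN tumors. Slc2a1 in 4T1 had 62.9, 60.4 and 71.2 TPM in NT and 72.2, 88 and 107 TPM in LEN, while Pgk1 had 221, 223 and 233 TPM in NT and 235, 142 and 293 TPM in LEN, the 142 TPM being LEN tumor 4. The median change of the 45 genes in 4T1 was 0.02. It was 0.24 without that tumor and -0.18 without LEN tumor 5.

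**Figure D2:**
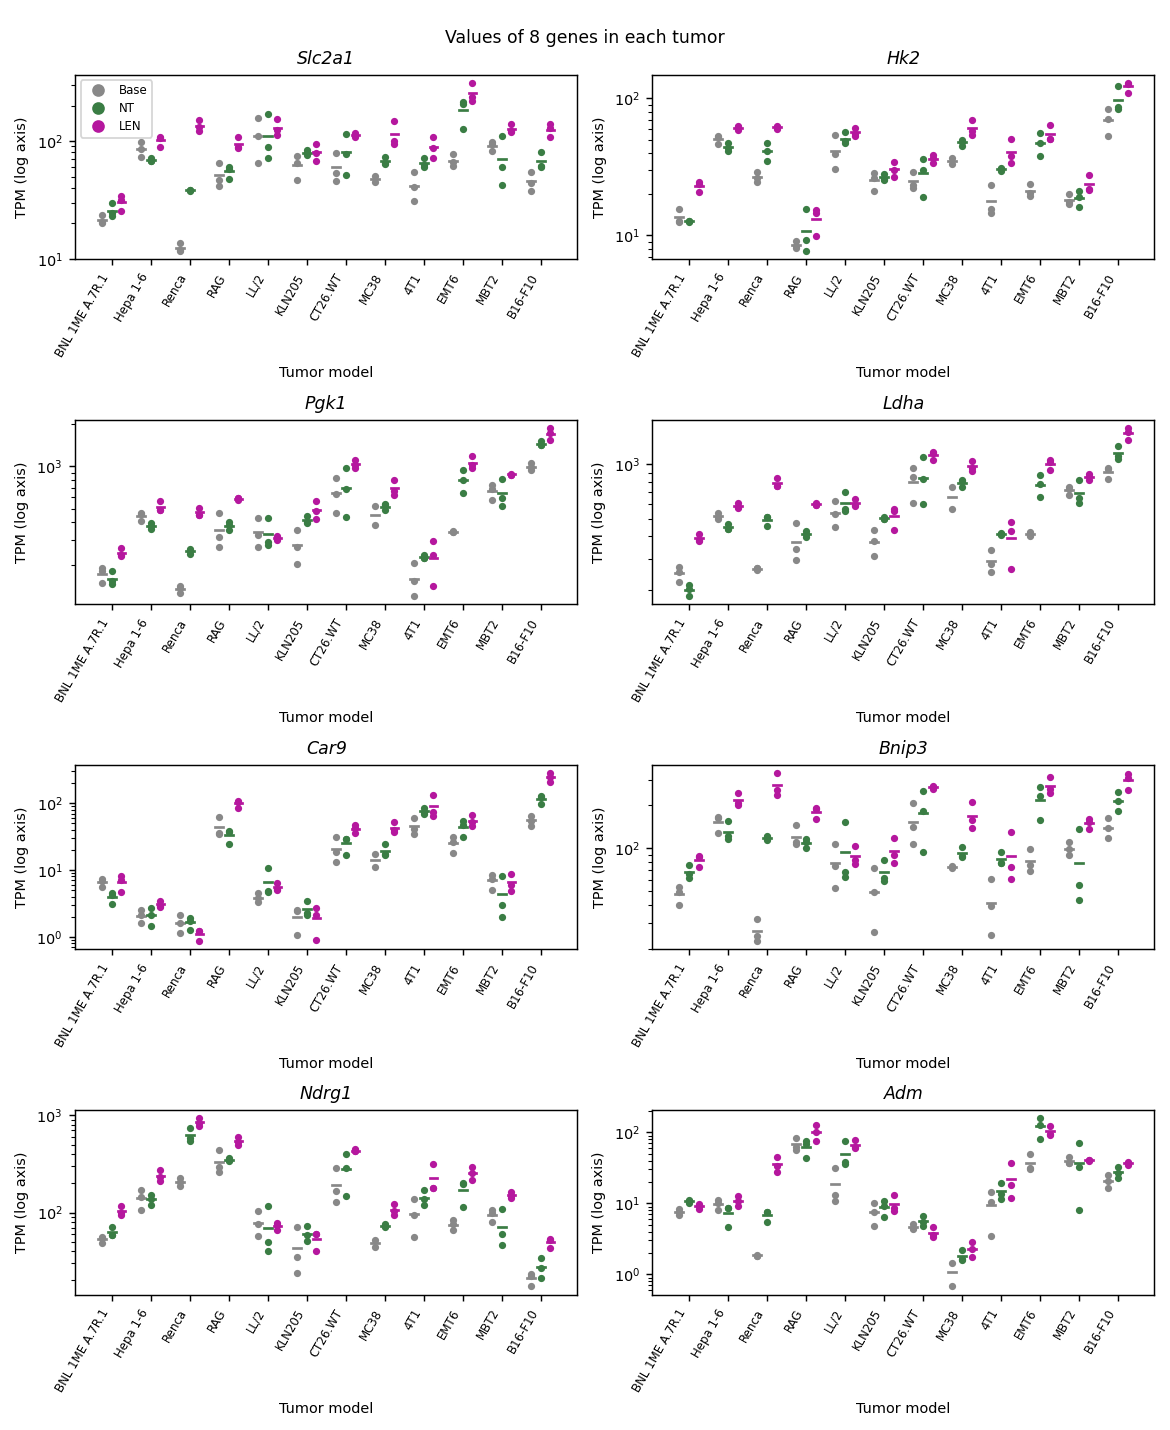
TPM of 8 genes in each tumor on a log axis, by tumor model and group (grey Base, green NT, magenta LEN). Points are tumors and short lines are the mean of the group. Renca goes from 11.7 to 13.7 TPM of Slc2a1 in Base to 121 to 150.4 TPM in LEN, and the LL/2 groups overlap in Slc2a1, Pgk1, Bnip3 and Ndrg1.

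The models were then fitted 1 at a time, on 3 NT and 3 LEN tumors each. In Renca 32 of the 42 genes tested rose and 1 fell, where 4.91% of all genes rose and 7.15% fell. In BNL 1ME A.7R.1 24 of 45 rose and 2 fell, where 26.3% of all genes rose and 5.21% fell. In B16-F10 15 of 43 rose and 0 fell (0 also at an unadjusted p under 0.05), where 8.57% rose and 2.42% fell. In the other 9 models no gene of the 45 passed (limma), where few genes of any kind did. The shares of all genes higher and lower were 0.0423% and 0.0242% in Hepa 1-6, 0.0261% and 0.00651% in RAG, and 0.0709% and 0.0774% in LL/2. They were 0.0778% and 0.15% in KLN205, 0% and 0.00659% in CT26.WT, and 0.00628% and 0.0251% in MC38. In 4T1 both were 0.00637%, in EMT6 0.819% and 0.0968%, and in MBT2 0.0065% and 0.013%. At an unadjusted p under 0.05, 34 of 43 genes were higher in Hepa 1-6, 31 of 44 in MC38, 26 of 44 in RAG, 22 of 43 in MBT2, 20 of 44 in EMT6, 10 of 44 in CT26.WT, 5 of 45 in KLN205, 3 of 43 in LL/2 and 1 of 45 in 4T1. The same shares over all genes were 19.7% in Hepa 1-6, 6.79% in MC38, 3.19% in RAG, 5.44% in MBT2, 12.5% in EMT6, 4.29% in CT26.WT, 4.29% in KLN205, 1.75% in LL/2 and 2.12% in 4T1. Lower at the same p were 2 genes in MC38, 2 in CT26.WT, 1 in KLN205, 1 in MBT2 and 0 in the other 5, where 3.97% to 16% of all genes were lower. In the fit of all 72 tumors, read 1 model at a time, 12 genes passed in Hepa 1-6, 9 in MBT2 and 5 in RAG. In the other models with no call alone 0 to 3 passed. The shares of all genes were not computed for these contrasts, so these counts have no background.

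The tumors of a model did not overlap for many of the genes. All 3 LEN tumors were above all 3 NT tumors for 35 of 42 genes in Renca, against 13.3% of all genes, and for 33 of 44 in MC38 (11.1% of all), 33 of 43 in Hepa 1-6 (24.6%), 27 of 44 in RAG (5.09%), 27 of 43 in B16-F10 (20.3%), 30 of 45 in BNL 1ME A.7R.1 (38.1%), 23 of 44 in EMT6 (16.4%) and 20 of 43 in MBT2 (8.53%). The counts were lower in CT26.WT (11 of 44, 7.23%), KLN205 (8 of 45, 6.79%), 4T1 (7 of 45, 5.32%) and LL/2 (3 of 43, 2.75%). In the reverse direction, with all LEN tumors below all NT tumors, there were 5 genes in BNL 1ME A.7R.1 (9.21% of all genes), 3 in Renca (19.4%), 2 each in KLN205 (12.7%), CT26.WT (7.58%), MC38 (6.41%) and 4T1 (9.14%), 1 each in LL/2 (23.7%) and MBT2 (10.6%), and 0 in Hepa 1-6 (5.02%), RAG (9.06%), EMT6 (7.02%) and B16-F10 (11.3%).

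Relative to the median of all genes, the median of the 45 was highest in Renca (0.64 against -0.04) and high in MBT2 (0.45 against -0.03), RAG (0.45 against -0.03), CT26.WT (0.39 against 0.01), B16-F10 (0.38 against 0.02), MC38 (0.35 against 0.03) and Hepa 1-6 (0.46 against 0.14). It was 0.41 against 0.17 in BNL 1ME A.7R.1, 0.29 against 0.04 in EMT6, 0.02 against -0.19 in 4T1, 0.12 against -0.04 in KLN205 and -0.01 against -0.13 in LL/2. Single tumors moved some of these medians. In CT26.WT the median was 0.18 without NT tumor 5 and 0.59 without NT tumor 3, in MBT2 0.29 without NT tumor 3, and in EMT6 0.16 without NT tumor 4. In KLN205 it was 0.003 without LEN tumor 1 and 0.20 without LEN tumor 3. In LL/2 it ran from -0.09 without NT tumor 1 to 0.13 without NT tumor 2. With upper-quartile and protein-coding rescaling the LL/2 median was 0.12 and 0.07, the reverse sign, and that of 4T1 0.10 and 0.22. In BNL 1ME A.7R.1, scaling by the upper quartile moved the median of all genes to -0.01 and that of the 45 to 0.22 (0.33 glycolytic, 0.06 non-glycolytic), and left 17 genes higher and 5 lower, where 2182 of all 16577 genes were higher and 1929 lower. Scaling over the protein-coding genes gave medians of 0.05 over all genes and 0.28 over the 45 (0.39 and 0.13), and left 21 higher and 5 lower, where 2783 of 16611 were higher and 1491 lower. In EMT6 the median of the 45 was 0.19 and 0.17 with these scalings, against -0.05 and -0.07 over all genes, and in KLN205 0.15 and 0.18. The protein-coding share of TPM was higher in LEN than in NT without overlap in both EMT6 (62.9% to 66.6% against 57.3% to 61.0%) and BNL 1ME A.7R.1 (60.2% to 62.0% against 54.3% to 57.4%).

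**Figure D3:**
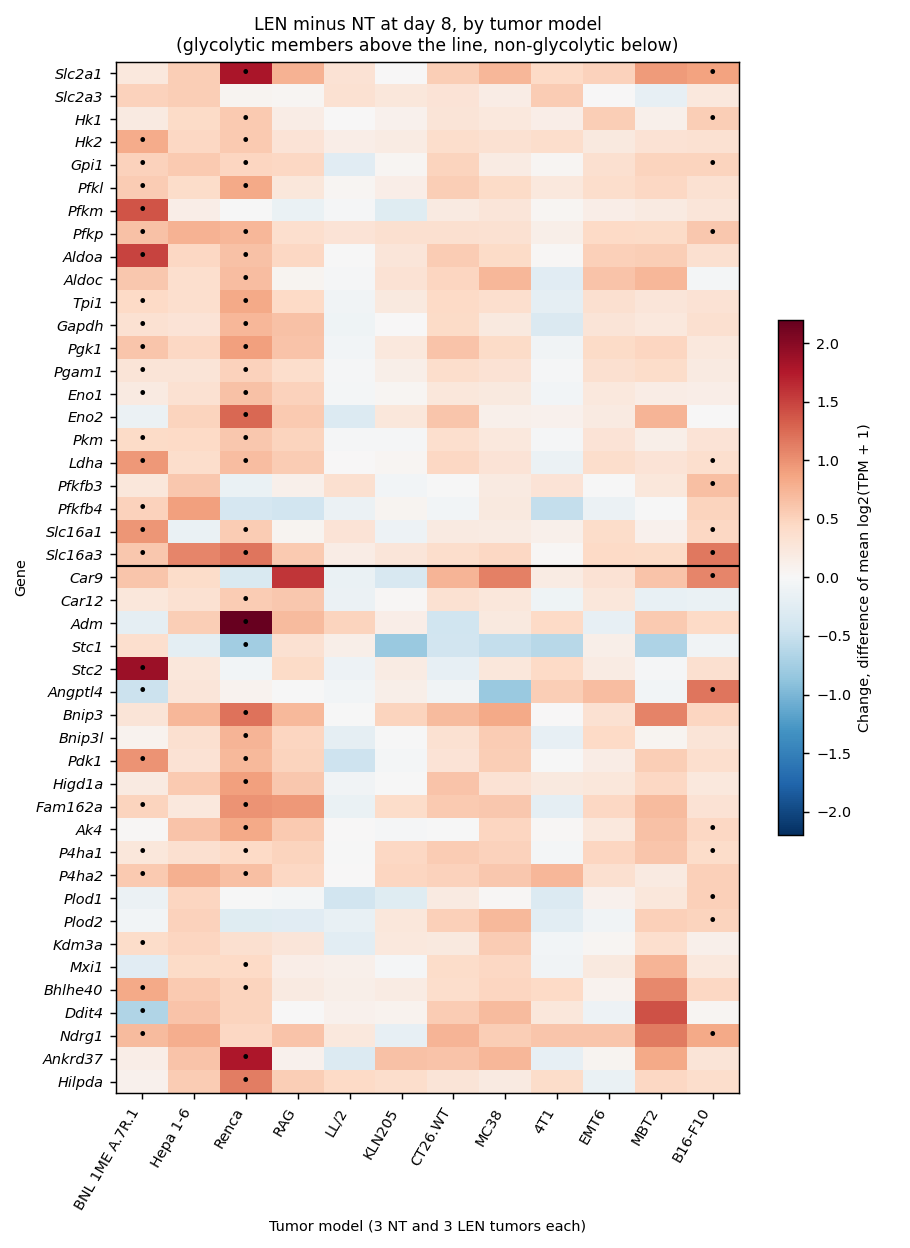
Change of each gene (rows) in each model (columns) as the difference between the mean log2(TPM + 1) of 3 LEN and 3 NT tumors, red for higher in LEN and blue for lower, with the colour scale ending at 2.2 in each direction. Dots mark an adjusted p under 0.05 in the model alone. Dots fill most of the Renca column (33 of 42 genes tested), part of BNL 1ME A.7R.1 (26 of 45) and B16-F10 (15 of 43) and no other column, and the LL/2 and 4T1 columns are pale.

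Renca had the widest response. Besides Adm and Slc2a1 (1.79), Ankrd37, an ankyrin repeat gene, had 5.48, 6.11 and 5.71 TPM in NT and 22.2, 26.1 and 19.2 TPM in LEN, a change of 1.79 ± 0.12 (adjusted p = 0.0004, limma). Eno2, the neuronal-type enolase, changed there by 1.26 and Bnip3 by 1.2. Stc1 was the gene that fell, by 0.76 on the log2 scale (adjusted p = 0.019). Counts in Renca ranged from 22 to 35 when 1 tumor was left out. In the same tumors the summed TPM of macrophage markers was 648 to 729 in NT and 336 to 360 in LEN, of proliferation genes 337 to 378 and 258 to 266, and of erythroid genes 76.2 to 127 and 6.40 to 10.4. Neutrophil markers were at 14.5 to 15.3 in NT and 29.3 to 40.0 in LEN, and T-cell markers at 2.24 to 2.67 and 6.46 to 8.20. Their part was not tested.

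In BNL 1ME A.7R.1 the largest rise was that of Stc2, by 1.89 ± 0.25 (adjusted p = 0.0021, limma), followed by Aldoa and Pfkm, which are also the muscle isozymes of aldolase and phosphofructokinase. Aldoa had 344, 365 and 314 TPM in NT and 999, 865 and 1021 TPM in LEN. Pfkm had 21.0, 20.2 and 21.1 TPM in NT and 59.0, 50.6 and 58.4 TPM in LEN. The muscle markers given above moved in the same tumors, among them Ckm at 2.74 to 14.0 TPM in NT and 308 to 491 TPM in LEN, and their part in these changes was not tested. Ddit4 fell by 0.67 on the log2 scale (adjusted p = 0.0049), from 62.2, 76.4 and 76.4 TPM in NT to 39.5, 48.4 and 46.1 TPM in LEN. Angptl4 fell by 0.48 on the log2 scale (adjusted p = 0.016), from 68.5, 55.9 and 55.6 TPM to 39.1, 41.3 and 47.6 TPM.

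In B16-F10 the largest rise was that of Angptl4, by 1.18 ± 0.16 (adjusted p = 0.0069, limma), from 2.41, 2.11 and 1.93 TPM in NT to 6.18, 4.93 and 7.57 TPM in LEN, followed by Slc16a3 (1.15) and Car9 (1.07). The markers of macrophages, T cells, adipocytes, fibroblasts and muscle given above were higher in the same tumors. The neutrophil sum was also higher (11.9 to 16.2 against 1.22 to 8.07 TPM in NT), as was the share of TPM in mitochondrially coded genes (5.04% to 5.68% against 3.66% to 3.83%), while the erythroid sum (31.5 to 44.3 against 212 to 2781 TPM) and the proliferation sum (465 to 471 against 547 to 638 TPM) were lower. The 4 skin genes summed to 0.13 to 44.3 TPM in LEN and were listed at 0 in NT. Their part was not tested. Without B16-F10 the mean change over models was 0.02 for Angptl4, 0.51 for Slc16a3 and 0.43 for Car9. The number of genes that passed in B16-F10 depended on single tumors. It was 4 without NT tumor 2, 5 without LEN tumor 3 or LEN tumor 5, 8 without NT tumor 5 or LEN tumor 2, and 21 without NT tumor 4.

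The size of the change differed between models for 28 of the 45 genes (F test over 11 contrasts, adjusted p under 0.05), a share that may be read against 35.3% of all genes. The smallest adjusted p were those of Stc2, Pfkm, Aldoa, Angptl4 and Ddit4. Stc2, Pfkm and Aldoa no longer passed without BNL 1ME A.7R.1 (adjusted p = 0.075, 0.24 and 0.21, limma), while Angptl4 and Ddit4 did (adjusted p = 0.00078 and 0.01). In all, 17 genes passed without BNL 1ME A.7R.1, where 20% of all genes did, 16 without Renca (30.8% of all genes), 26 without B16-F10 (29.8%) and 30 without 4T1 (44.6%). Ddit4 had its largest change in MBT2 (1.40, not called there), where NT had 14.5, 13.01 and 40.7 TPM and LEN 66.0, 46.2 and 51.2 TPM, in contrast to its fall in BNL 1ME A.7R.1. No difference between models was called for Ndrg1 (adjusted p = 0.24), Bnip3 (0.12), Hk2 (0.46), Pfkp (0.32), P4ha2 (0.47) or Bhlhe40 (0.30).

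The glycolytic and non-glycolytic genes had like medians in most models. In Renca they were 0.65 and 0.57, in B16-F10 0.34 and 0.41, in Hepa 1-6 0.44 and 0.50, in CT26.WT 0.39 and 0.40, in RAG 0.41 and 0.48, and in LL/2 -0.02 and -0.01. The glycolytic median was the higher in BNL 1ME A.7R.1 (0.51 and 0.25) and EMT6 (0.35 and 0.22), and the non-glycolytic in MBT2 (0.32 and 0.57) and MC38 (0.28 and 0.52). In BNL 1ME A.7R.1 16 of 22 glycolytic genes rose against 8 of 23 non-glycolytic, where both genes that fell were found. Of all genes there, 26.3% rose and 5.21% fell, with a median of 0.17, so the non-glycolytic genes were near that background. These differences between the classes were not tested.

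In the Base tumors all 45 genes differed between the models (F test on 35 tumors, adjusted p under 0.05), as did 93.6% of all 17542 genes tested. The highest model mean was 2.36 to 41.5 times the lowest for glycolytic genes (median 4.70) and 2.91 to 175 times for non-glycolytic genes (median 6.57). B16-F10 had the highest mean of 14 of the 22 glycolytic genes and of 3 of the 23 non-glycolytic genes. Hepa 1-6 had the highest mean of 7 non-glycolytic genes and RAG of 4. Renca had the lowest mean of 8 glycolytic and 7 non-glycolytic genes, yet the highest of Pfkm, Pfkfb3, Angptl4 and Ddit4. The SD between model means had a median of 0.66 (log2) over the glycolytic genes and 0.81 over the non-glycolytic genes, and the SD within models 0.22 and 0.28.

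Gapdh, the glyceraldehyde phosphate dehydrogenase often used as a reference gene, ranged from 742, 648 and 578 TPM in 4T1 Base tumors to 3183, 3062 and 2902 TPM in B16-F10. Slc2a1 ranged from 12.4 ± 1.1 TPM (SD, n = 3) in Renca over 21.4 ± 1.9 TPM in BNL 1ME A.7R.1 to 91.3 ± 7.8 TPM in MBT2 and 111 ± 46 TPM in LL/2, the last with a spread wide enough to hold its neighbours. Slc16a3 spanned the widest range of the glycolytic genes, from 4.48 to 5.08 TPM in Renca to 175 and 222 TPM in the 2 MC38 tumors. Car9 ran from 1.61 ± 0.48 TPM in Renca to 44.1 ± 15.6 TPM in RAG, 45.7 ± 13.8 TPM in 4T1 and 55.3 ± 9.4 TPM in B16-F10, and these highest 3 did not differ beyond their spread. Hk2 was lowest in RAG (8.56 ± 0.53 TPM) and highest in B16-F10 (69.4 ± 15.4 TPM). Ndrg1 went against the glycolytic order, lowest in B16-F10 (21.1 ± 3.1 TPM) and highest in RAG (333 ± 97 TPM). Car12 had the widest range of all, from 0.14 to 0.35 TPM in MBT2 to 34.4 to 43.8 TPM in EMT6.

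**Figure D4:**
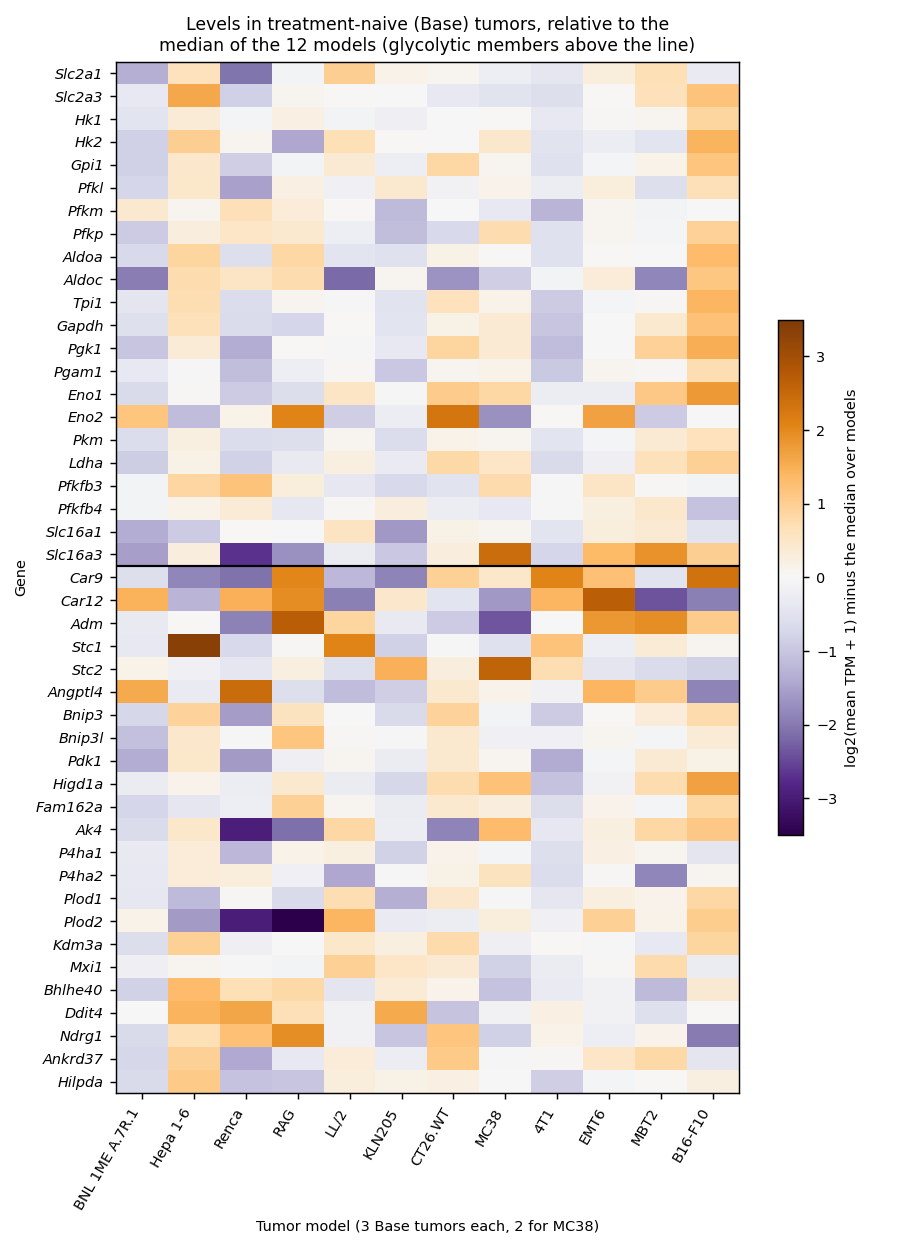
Base level of each gene (rows) in each model (columns) as log2(mean TPM + 1) minus the median over the 12 models, orange for above and purple for below, with the colour scale ending at 3.5 in each direction. The B16-F10 column is orange over most glycolytic genes (highest of 14 of 22), and the Renca column is purple for Slc2a1, Slc16a3, Car9 and Ak4.

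The 16 enzyme genes together took 0.650% ± 0.019 of the protein-coding TPM in Renca Base tumors (SD, n = 3) and 2.07% ± 0.19 in B16-F10. In Renca the share was 1.14% ± 0.017 in NT and 1.90% ± 0.049 in LEN, so that the 3 groups did not overlap. In B16-F10 it was 2.61% ± 0.17 in NT and 3.06% ± 0.22 in LEN, and in LL/2 1.24% ± 0.23 and 1.25% ± 0.07. The LEN mean was above the NT mean in 12 of 12 models, and every LEN tumor above every NT tumor in 8 of them. In 4T1 the share was 0.964% ± 0.053 in NT and 1.06% ± 0.09 in LEN, with the tumor of low protein-coding share included.

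**Figure D5:**
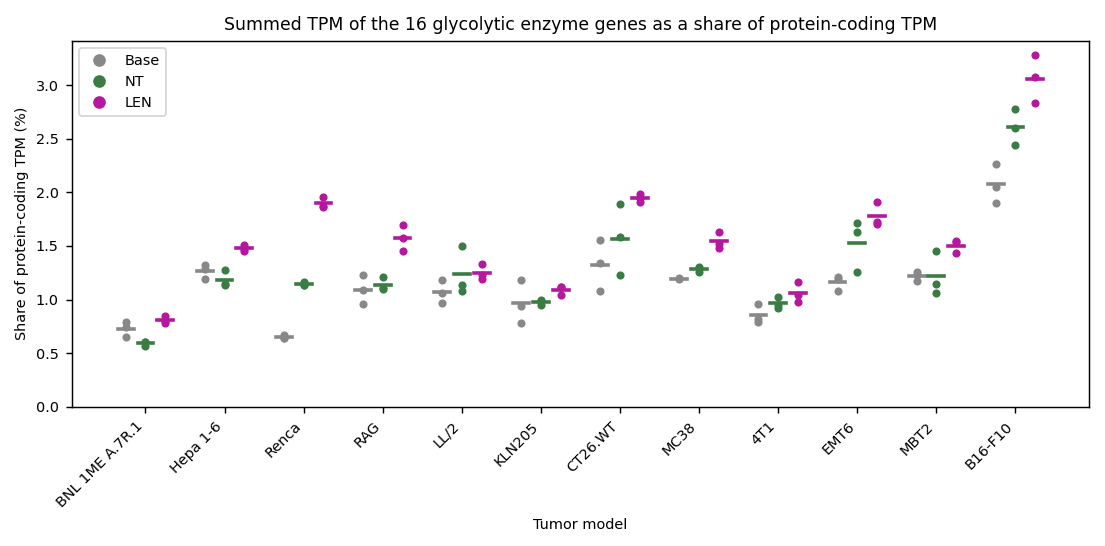
Summed TPM of the 16 glycolytic enzyme genes as a percentage of the protein-coding TPM of each tumor, by model and group (grey Base, green NT, magenta LEN), with points for tumors and lines for means. Within each group the B16-F10 tumors are the highest, from 1.90% to 2.27% in Base and from 2.83% to 3.28% in LEN, and the Renca means go from 0.650% in Base to 1.90% in LEN.

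The course without the drug was read from NT at day 8 against Base. This comparison shares the NT tumors with that of LEN. Averaged over models, 32 of 45 genes were higher in NT than in Base and 2 lower (limma on 71 tumors), where 17% of all 17428 genes were higher and 11.5% lower. With upper-quartile or protein-coding rescaling 29 were higher and 3 lower. The difference varied between models for 40 of the 45 genes (F test), and for 66.5% of all genes. The median was 0.22 over the 45 genes, 0.20 over the glycolytic and 0.26 over the non-glycolytic genes, and 0.01 over all genes. With protein-coding rescaling it was 0.15 over the 45 genes and -0.04 over all genes. The protein-coding share of TPM moved without overlap in some models, from 43.5% to 45.9% in Base to 57.3% to 61.0% in NT in EMT6, from 39.6% to 42.3% to 50.8% to 52.7% in KLN205, and from 45.3% to 49.0% to 54.3% to 57.4% in BNL 1ME A.7R.1. Markers of other cells moved too, with all 6 muscle genes and 3 of 5 fibroblast genes lower in NT on average. In Renca the summed fibroblast TPM was 1163 to 1825 in Base and 259 to 545 in NT, and that of muscle 211 to 301 and 12.6 to 120. The part of these shifts was not tested. All 7 enzymes of the lower part, all 6 genes of mitochondria and all 4 of Ndrg1, Ddit4, Ankrd37 and Hilpda rose. The genes that fell were Stc2, by 0.25 on the log2 scale (adjusted p = 0.00078), and Pfkfb4, by 0.21 on the log2 scale (adjusted p = 0.0065). Bnip3 changed by 0.51, Adm by 0.50 and Slc2a1 by 0.42, while Slc2a3 (-0.03), Pfkfb3 (-0.06), Car12 (-0.002), Stc1 (0.03), Pfkp (0.08) and Bhlhe40 (0.14) did not pass. Pfkp and Bhlhe40 rose under LEN and passed in neither direction here, which is no test of a difference between the comparisons. In Renca Bnip3 went from 32.1, 24.4 and 22.6 TPM in Base to 121, 119 and 113 TPM in NT, and Slc2a1 from 11.7, 13.7 and 11.8 TPM to 38.5, 37.5 and 38.3 TPM. In EMT6 Slc2a1 went from 77.1, 66.4 and 60.9 TPM to 207, 213 and 128 TPM, in the libraries whose protein-coding share was the higher one in NT. Not all models moved this way. The mean enzyme share was above Base in NT in 9 of 12 models. In BNL 1ME A.7R.1 it was 0.787%, 0.747% and 0.652% in Base and 0.608%, 0.601% and 0.568% in NT, with every NT tumor lower, and in Hepa 1-6 the means were 1.27% and 1.18%.

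Other genes of the same pathways, from lists that hold none of the 45, were less uniform. Of 28 further HIF targets, 17 rose in LEN and 0 fell, with a median of 0.20, where 13.7% of all genes rose and 9.87% fell. These lists were chosen with earlier results of these data known, so the counts are descriptions. Those that rose included Nos2, the inducible nitric oxide synthase (0.98), and Egln3, an oxygen sensor (0.69). Vegfa, the growth factor of blood vessels (0.67, higher in 12 of 12 models), and Ero1l, an oxidase of protein folding (0.62), also rose. Loxl2 (-0.14), Hmox1 (0.20) and Tfrc (-0.06) did not pass. Of 16 alternative isozymes and transporters, 10 were tested, 4 rose and 3 fell, with a median of 0.04. Those that rose on average were Hk3, Pgam2, Pklr and Eno3, of which Eno3 and Pklr were higher in only 5 of 12 models each, and those that fell were Slc16a7 (-0.55), Ldhb (-0.19) and Bpgm (-0.13). Pgam2 and Eno3 are muscle isozymes.

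Markers of other cells moved in the same comparison. All 9 endothelial genes tested fell in LEN (median -0.83), as did 5 of 5 erythroid genes (-2.12), 5 of 5 proliferation genes (-0.36) and 5 of 6 macrophage genes (-0.38), while 6 of 6 muscle genes (1.05), 5 of 5 neutrophil genes (0.57), 5 of 5 T-cell genes (0.40), the 1 adipocyte gene tested (0.54) and 2 of 3 epithelial genes (0.40) rose. The epithelial genes were Krt8 and Krt18, higher in 7 of 12 models, with their largest shift in BNL 1ME A.7R.1. Fibroblast genes had 1 higher and 1 lower of 5, squamous genes 1 higher of 3, and melanocyte (4), hepatocyte (4) and skin (1 tested) genes 0 called (limma). The summed endothelial TPM was lower in LEN without overlap with NT in most models. In Renca it was 49.1 to 57.6 against 111 to 134, and in LL/2 45.4 to 51.3 against 76.3 to 83.3. The same held in BNL 1ME A.7R.1, RAG, CT26.WT, MC38, 4T1, EMT6 and MBT2. The sum overlapped in Hepa 1-6 and KLN205, and in B16-F10 it was higher in LEN (253 to 259 against 233 to 252). Of the 9 genes, Cdh5, Kdr, Pecam1, Tie1, Cldn5, Emcn and Pcdh12 had lower means in LEN in 12 of 12 models, B16-F10 included, and Eng and Sparcl1 in 10 models. The part of these cells in the changes of the 45 genes was not tested.

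Some of the genes have near-identical copies, between which reads can be split. Transcripts of other genes matching at 95% identity or more over at least 300 bases were found for Gapdh (75 genes, which held 18.5% of the summed TPM) and Eno1 (4 genes, 21.3%), and for Pgk1, Pgam1 and Bnip3 they held 3.06% to 4.87%. For Pfkp the match was a stretch shared with its neighbour Pitrm1, a different gene and not a copy. Pitrm1 held 30.7% by its whole TPM, not by the part that matched. How far reads of these genes were split was not tested, and their levels are uncertain.

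Within groups, the genes varied together from tumor to tumor. After subtraction of the group means, the correlation across the 107 tumors had a median of 0.60 over the 231 pairs of glycolytic genes, 0.52 over the 253 pairs of non-glycolytic genes and 0.53 over the 506 mixed pairs. The tumors share library scaling and composition, so these are descriptions. Ldha and Tpi1 were the closest pair (r = 0.95), and Bnip3 and Ndrg1 the closest non-glycolytic pair (r = 0.91). Pfkfb4, Angptl4 and Stc2 had medians near 0 with the other genes (0.005, 0.01 and 0.04), and Stc1 had 0.28.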

How the data were processed

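The authors sequenced rRNA-depleted libraries. Their processing used Trimmomatic 0.36 for trimming, STAR 2.5.2b for mapping to mm10, and RSEM 1.2.31 for quantification, and they deposited TPM for 50686 genes in 107 tumors. Each column has the same sum, so depth and counting precision are unknown. Which tumor ran on which sequencer is not given in the sources used here.

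Values were analyzed as log2(TPM + 1) with limma 3.58.1 in R 4.3.3 with the prior variance following the mean. Genes averaging 1 TPM or more were tested, with Benjamini-Hochberg adjustment and a threshold of 0.05. All LEN and NT tumors were fitted as 24 groups, giving the mean effect and the F test, and each model was fitted alone. NT against Base and Base between models were fitted alike. By the study's methods each mouse was implanted in 1 flank, so tumors were taken as separate animals.

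Genes given by tumor or model were Slc2a1, Hk2, Pgk1, Ldha, Car9, Bnip3, Ndrg1 and Adm, the 4 glycolytic and 4 non-glycolytic genes with the largest called mean change, the largest rise and fall called in each model, and the 5 genes with the smallest F test p. Stc1, Ankrd37 and Gapdh values were added after the values were seen. The members and lists were chosen with earlier results of these data known.

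Positions and exons came from GENCODE M21 and promoters from RefSeq (GRCm38.p6). Copies were found with minimap2 2.31. The alternatives tried were 0.1 as the pseudocount, the mean TPM filter removed or raised to 5, upper-quartile or protein-coding rescaling, a constant prior variance, the replicate number as a block, single-model contrasts, Pdk1 counted as glycolytic, and leaving out each tumor or model. The code was tested on simulated data. Same-numbered NT and LEN tumors did not deviate together (correlations of -0.08 to 0.08 in 20 pairs), so the numbers were not used as pairs. Python 3.11.15, numpy 2.4.6, pandas 2.3.3 and matplotlib 3.10.9 were used.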

Additional observations from a re-analysis of the deposited data

Results flagged for a closer look

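The LEN effect differed between the 12 models, by the F test of the 72-tumor fit, for 28 of the 45 genes. The adjusted p (limma) were smallest for Stc2 (3.33e-09), Pfkm (5.26e-08), Aldoa (5.36e-05), Angptl4 (5.99e-05), Ddit4 (0.000151), Slc16a1 (0.000369), Stc1 (0.000509), Ldha (0.000545) and Car9 (0.000896). They were between 0.001 and 0.02 for Gapdh (0.00237), Fam162a (0.00319), Plod1 (0.00413), Slc2a1 (0.00442), Pfkfb4 (0.00618), Slc16a3 (0.00628), Ankrd37 (0.00745), Adm (0.00757), Pdk1 (0.0115), Eno1 (0.0125), Tpi1 (0.0135) and Plod2 (0.0144), and higher for Bnip3l (0.0259), Pgk1 (0.0293), Eno2 (0.035), P4ha1 (0.0402), Mxi1 (0.0413), Pkm (0.0433) and Gpi1 (0.0498).

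The values behind the leading genes are given above. Of the models left out in turn, Stc2, Pfkm, Aldoa, Slc16a1 and Pdk1 lost the call only without BNL 1ME A.7R.1, and Slc2a1 (adjusted p = 0.34), Ankrd37 (0.26), Adm (0.53), Eno1 (0.15) and Tpi1 (0.13) only without Renca. Bnip3l lost it without Renca (0.12) and without LL/2 (0.055), Pfkfb4 only without Hepa 1-6 and Plod2 only without MC38. Pgk1, Eno2, P4ha1, Mxi1, Pkm and Gpi1 lost it without BNL 1ME A.7R.1, without Renca and without at least 1 further model. Car9 kept it without BNL 1ME A.7R.1 and without Renca (adjusted p = 0.002 and 0.0058, limma). The changes of Car9 ran from -0.35 in KLN205 and -0.33 in Renca to 1.57 in RAG.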

How the results depend on the processing

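The mean LEN effect gave 39 to 41 genes higher and 1 lower over the pseudocount, minimum, scaling, trend and block alternatives, 40 to 41 higher without any 1 tumor and 39 to 41 without any 1 model. The glycolytic count stayed at 20 to 22 higher and 0 lower, with 22 where Pdk1 was counted as glycolytic, and all 45 genes differed between models at Base except with a minimum of 5, where 43 did. The replicate block, a number that does not pair the tumors (correlation within blocks 0.08), left 41 higher and 1 lower, 32 higher and 2 lower for NT against Base, and 30 genes differing between models. The number differing between models was 17 without BNL 1ME A.7R.1 and 16 without Renca, and 22 to 34 without any 1 tumor. For NT against Base 27 to 34 genes were higher without any 1 model, and 1 was lower with a minimum mean TPM of 5 and without MC38.

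Counts in single models moved most. With single-model contrasts of the 72-tumor fit the counts were 29 in Renca, 17 in BNL 1ME A.7R.1, 12 in Hepa 1-6 and 12 in B16-F10. They were 9 in MBT2, 5 in RAG, 3 in 4T1, 2 in KLN205, 2 in EMT6 and 1 in CT26.WT. The shares of all genes were not computed for these contrasts. With a minimum of 5 the counts were 7 in Hepa 1-6, 3 in EMT6 and 2 in RAG, and with a pseudocount of 0.1 1 in EMT6. Of all 10820, 10579 and 10393 genes tested with a minimum of 5, 143, 225 and 9 were higher and 13, 20 and 3 lower. B16-F10 had 9 with no minimum and 9 with no trend. Without any 1 tumor the counts ranged from 4 to 21 in B16-F10, 23 to 28 in BNL 1ME A.7R.1, 22 to 35 in Renca, 0 to 4 in Hepa 1-6 (4 without NT tumor 4) and 0 to 10 in MBT2 (10 without NT tumor 5). The cause was not tested. With 3 tumors a group, an exact permutation test of 1 gene could not go below p = 0.1, and TPM without counts gives no interval for low genes such as Stc2.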

Other observations

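Eno1b, a near-identical copy of Eno1, was measured at levels that split the models by host strain. Of the summed TPM of Eno1 and Eno1b in Base tumors it held 0.307% to 0.439% in Hepa 1-6, LL/2, MC38 and B16-F10, whose hosts are C57L or C57BL/6 mice, and 17.6% to 19.5% in the other 8 models, whose hosts are BALB/c, DBA/2 or C3H mice. With Eno1b added, the Base level of Eno1 in CT26.WT was 1353 TPM in place of 1089 TPM, and in B16-F10 1858 TPM in place of 1849 TPM. These sums leave out Gm4735, at a mean of 112 TPM the most abundant gene similar to Eno1. The share changed little between NT and LEN, from 18.8% to 20.3% in BNL 1ME A.7R.1 and from 19.6% to 20.1% in Renca.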
